A study of Homo sapiens with 3 samples.

Results

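Protein phosphatase 1 (PP1) is represented here by 45 protein-coding genes, out of 60554 genes in the table and 19664 that are protein-coding. They are the 3 catalytic subunit genes PPP1CA, PPP1CB and PPP1CC and the 42 genes whose symbol begins with PPP1R and a digit. Pseudogenes and antisense genes of these names (23 pseudogenes and 10 other non-coding genes) were left out. The RNA came from 3 stable lines, with 1 library each, derived from KYSE30, a long-used human cell line of esophageal squamous cell carcinoma. The control line carried a non-targeting scrambled shRNA according to the protocol, while its genotype label calls it a vector. The lines labelled shRNA 1 and shRNA 2 carried different shRNAs aimed at the small nucleolar RNA SNORD12B, which belongs to the box C/D class. All 3 lines had been infected for 24 hours with virus made from the pLKO.1-blast vector, in medium with 10% serum, and then kept for 2 weeks in 5 ug/mL blasticidin, so the control shares the infection and the selection. No line had a replicate culture.

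PP1 is a serine/threonine phosphatase with a small number of catalytic isoforms and a very large number of regulatory partners. The catalytic subunit is rarely free in cells. Most regulatory subunits hold it through a short RVxF-type motif and either bring it to a place, such as glycogen particles, myosin, chromatin or the endoplasmic reticulum, or block its active site. PP1 acts on glycogen metabolism, contraction, protein synthesis, RNA splicing and exit from mitosis, and which of these it serves is set largely by the regulatory subunits present.

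The control, shRNA 1 and shRNA 2 libraries held 15473922, 15146805 and 17336936 counts in all. SNORD12B itself was counted 7, 15 and 1 times in the same order. The library labelled shRNA 1 thus showed no reduction (2.16 times the control, 95% exact interval 0.831 to 6.28, which held 1). Only the library labelled shRNA 2 lay below the control (0.126 times, 0.0028 to 0.982). These counts are few for a gene of 91 bases, and the library kit is not known, so how well so short an RNA was captured is not known either. The lower level in the line labelled shRNA 2 rests on 1 count against 7. A knockdown was not shown in the line labelled shRNA 1. Any direction drawn from the line labelled shRNA 1 carries that limit. The epithelial markers KRT8, KRT18, EPCAM and CDH1 were all detected, with a summed level of 3965, 4083 and 4145 TPM (a level scaled to gene length and depth) in the control, shRNA 1 and shRNA 2 libraries. The 3 leukocyte markers together reached 0.204, 0.215 and 0.3 TPM, the 5 fibroblast markers 4.84, 3 and 4.33 TPM, and the 3 endothelial markers 1.61, 0.462 and 2.85 TPM. Of the fibroblast markers, COL1A1 had 245, 142 and 230 counts, COL3A1 and PDGFRB had 0 to 8, and DCN and LUM had none. Of the endothelial markers, CDH5 had 40, 13 and 91 counts. Of the 5 squamous basal markers, KRT5 had 1 to 3 counts and the other 4 were lower than the control in both shRNA lines. The 5 together reached 320, 82.9 and 181 TPM. Its part in the results given here was not tested.

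The promoters of PPP1R3C and PPP1R7 are shown because these genes had the lowest fitted ratios to the control among members with a mean of at least 1 CPM (counts scaled to depth, with no length). They are the 250 bases upstream of the first RefSeq start, on the gene's own strand, from RefSeq (GRCh38.p14). For PPP1R3C this is chr10:91633072-91633321 on the minus strand, and for PPP1R7 it is chr2:241149323-241149572 on the plus strand. Capitals mark matches, on either strand, to the CCAAT box, to the GC box (GGGCGG), to the TATA box (TATAAA) and to the core of the hypoxia response element (ACGTG or GCGTG).
PPP1R3C: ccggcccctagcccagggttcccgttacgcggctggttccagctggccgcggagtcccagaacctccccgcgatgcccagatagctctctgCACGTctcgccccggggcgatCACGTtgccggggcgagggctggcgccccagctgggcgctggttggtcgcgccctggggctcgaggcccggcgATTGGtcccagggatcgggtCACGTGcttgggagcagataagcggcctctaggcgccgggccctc
PPP1R7: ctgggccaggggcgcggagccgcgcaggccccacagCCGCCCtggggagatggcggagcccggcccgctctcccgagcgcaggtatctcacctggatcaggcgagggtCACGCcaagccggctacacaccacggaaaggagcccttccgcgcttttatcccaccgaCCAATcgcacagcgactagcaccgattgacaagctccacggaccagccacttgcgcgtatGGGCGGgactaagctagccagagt
The PPP1R3C window held 4 matches to ACGTG or GCGTG on the 2 strands. The closest to the start, at bases -45 to -41 on the minus strand and -44 to -40 on the plus strand, overlap as the palindrome CACGTG. Of 27305 genes with a promoter in the table, 890 (3.26%) held at least as many. It also held CCAAT on the minus strand at -65 to -61. The PPP1R7 window held CCAAT on the plus strand at -84 to -80, GGGCGG at -214 to -209 (minus) and -24 to -19 (plus), and GCGTG on the minus strand at -142 to -138. Among the 34 members with a promoter in the table, 13 held CCAAT (38.2%, against 33% of all genes), 22 held GGGCGG (64.7% against 42.3%), 5 held TATAAA (14.7% against 11.1%) and 21 held ACGTG or GCGTG (61.8% against 43.1%). The members are all protein-coding, while the 27305 genes were not limited to that type, so these shares are of unlike sets. These matches describe the letters only.

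Of the 45 members, 33 had enough counts to be tested. Several of the other 12 are known from other tissues. No count was found for PPP1R3A, the glycogen subunit of skeletal muscle, PPP1R1A (inhibitor 1), PPP1R17, a cerebellar inhibitor, PPP1R2C or PPP1R42. A count of 0 allows up to 0.195, 0.197 and 0.173 CPM in the control, shRNA 1 and shRNA 2 libraries. PPP1R1B (DARPP-32, the dopamine-regulated inhibitor of the striatum) had 1 count in all, PPP1R14A (CPI-17, an inhibitor of smooth muscle) 1, PPP1R16B, an endothelial subunit, 2 and PPP1R14D 3. PPP1R27 was counted 1, 2 and 4 times in the control, shRNA 1 and shRNA 2 libraries, PPP1R2B 2, 6 and 11 times and PPP1R36 8, 3 and 2 times.

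No PP1 gene passed the test between the shRNA lines and the control. The test was the two-sided quasi-likelihood F test of edgeR, with Benjamini-Hochberg adjustment over 17801 genes. At an adjusted p under 0.05 the test called 0 of 33 members, against 0% of all genes tested. At an unadjusted p under 0.05 it called 0 members, against 1.33% of all genes (237). The likelihood ratio test of edgeR, limma-voom and DESeq2 each also called 0 members. The lowest unadjusted p among the members was 0.0609, for PPP1R3C. The spread behind these p-values comes from the shRNA lines alone, and the fit takes the single control to vary as they do. For each gene that spread is mostly pooled over all genes tested, with 1 degree of freedom from the gene and 8.35 from the pool. A member whose shRNA lines lie close together can therefore still have a large SE. The standard errors (SE) of the members' log2 fold changes ran from 0.30 to 1.01. The values that follow are levels and ratios of single libraries. Their intervals are exact conditional 95% intervals of a ratio of counts and cover counting error only.

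**Figure D1:**
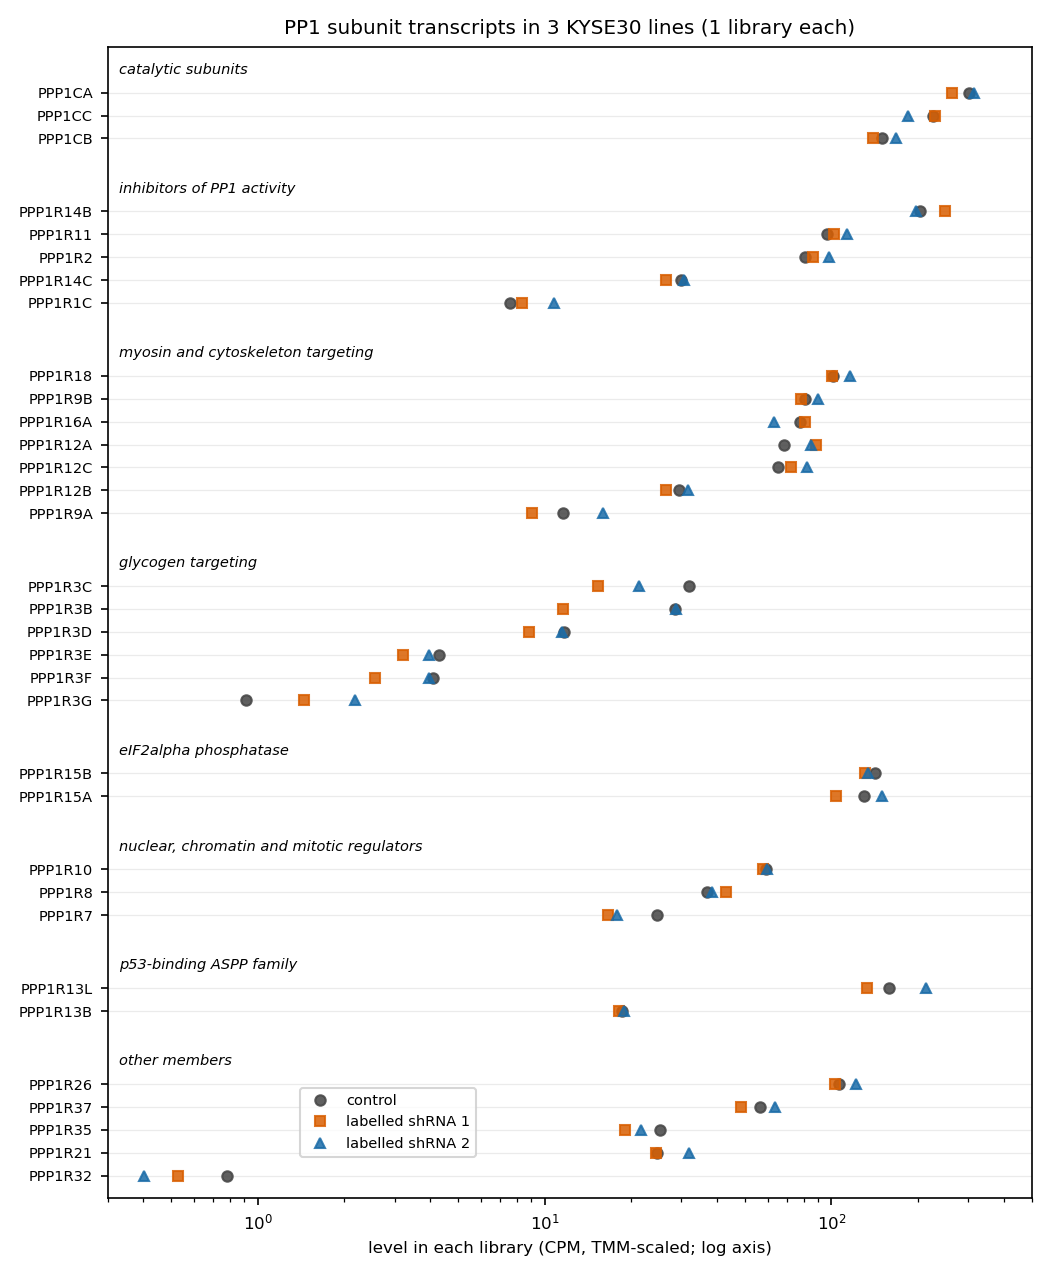
Level of each of the 33 tested PP1 genes in each library (CPM after TMM scaling, log axis), grouped by role, with 1 point per library and no replicates. PPP1CA was highest by count at 302, 262 and 313 CPM, and PPP1R32 lowest at 0.781, 0.526 and 0.403 CPM in the control, shRNA 1 and shRNA 2 libraries.

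The catalytic genes were abundant and their levels stayed near the control. PPP1CA (ENSG00000172531.14, chromosome 11, 67398183 to 67421183, minus strand, hg38) stood at 302 CPM in the control, 262 CPM with shRNA 1 and 313 CPM with shRNA 2. That is 0.867 times the control with shRNA 1 (0.831 to 0.905) and 1.04 times with shRNA 2 (0.996 to 1.08), and the fitted log2 fold change was -0.07 (SE 0.30). PPP1CB (ENSG00000213639.9, chromosome 2, 28751640 to 28802940, plus strand) had the same order, at 150, 140 and 168 CPM, or 0.929 (0.875 to 0.986) and 1.12 times the control (1.06 to 1.18). PPP1CC (ENSG00000186298.11, chromosome 12, 110719680 to 110742939, minus strand) had the other order, at 227, 229 and 186 CPM. It was 1.01 times the control with shRNA 1 (0.966 to 1.06) and 0.819 times with shRNA 2 (0.780 to 0.859). The shRNA lines thus lay on opposite sides of the control for all 3 genes, and the fitted log2 changes of PPP1CB and PPP1CC were 0.03 (SE 0.31) and -0.13 (SE 0.31). Exons of other genes on the opposite strand cover 26.9% of the exon length of PPP1CA, and strand assignment in these counts was not checked for that stretch. In bulk RNA such as this, fewer cells of a type and less RNA per cell cannot be told apart.

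Per gene length, PPP1CA made up 65.4%, 62.7% and 67.3% of the summed level of the catalytic genes in the control, shRNA 1 and shRNA 2 libraries. PPP1CB made up 15.3%, 15.7% and 17%, and PPP1CC 19.3%, 21.6% and 15.7%. PPP1CA was thus the main catalytic transcript in every library, and PPP1CB lay above PPP1CC only in the library labelled shRNA 2. That order rests on the length scaling, since by raw counts PPP1CC stayed above PPP1CB there (27.8% against 25.2%). The summed catalytic level was 505, 476 and 523 TPM, and the regulatory genes together reached 1413, 1467 and 1539 TPM. The regulatory sum was thus 2.8, 3.08 and 2.94 times the catalytic sum in the control, shRNA 1 and shRNA 2 libraries. These ratios also rest on the length scaling, and the regulatory sum leaves out PP1 partners with other symbols.

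**Figure D2:**
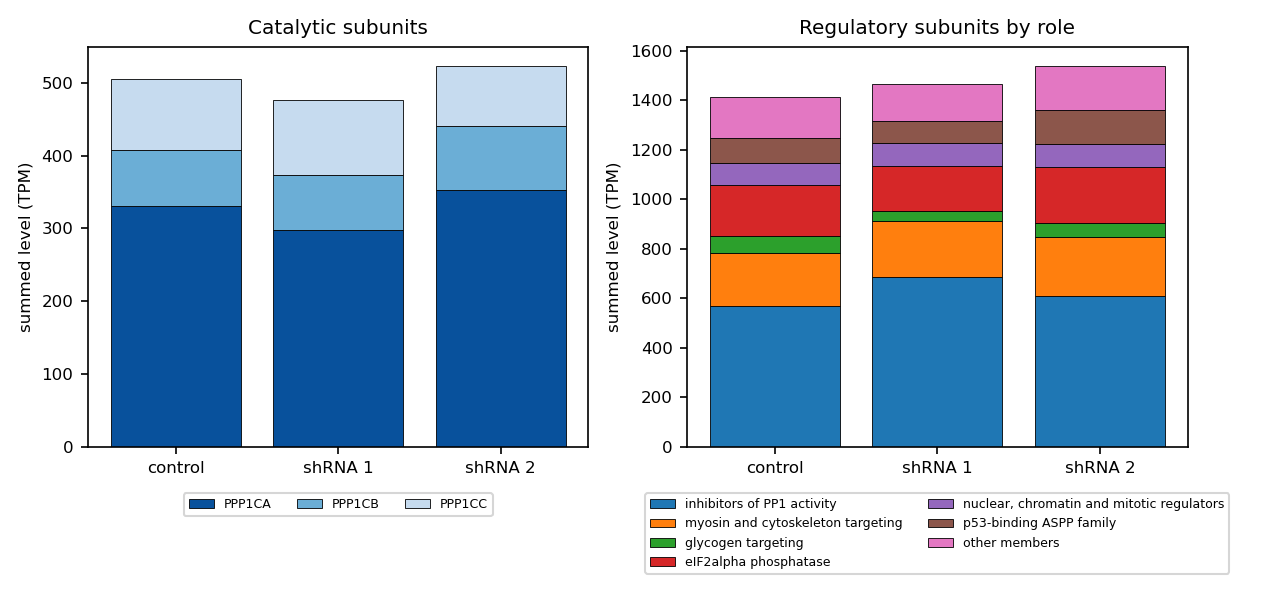
Stacked bars of the summed level per gene length (TPM) in each library, split by catalytic gene on the left and by role group of the regulatory genes on the right, with 1 library per bar. PPP1CA holds 62.7% to 67.3% of the catalytic level, and inhibitors hold 39.6% to 46.8% of the regulatory level.

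The glycogen-targeting subunits were the group with the lowest median ratio in the line labelled shRNA 1. These proteins bind glycogen and bring PP1 to glycogen synthase, which it activates, and to glycogen phosphorylase, which it inactivates. Their summed level was 67.4 TPM in the control, 37.1 TPM with shRNA 1 and 57.1 TPM with shRNA 2. That was 4.77%, 2.53% and 3.71% of the summed level of the regulatory genes. The median log2 ratio of the 6 tested members was -0.53 with shRNA 1 and -0.03 with shRNA 2, against 0.012 and -0.002 over all genes. Of the 6, 4 were below the control in both lines and 1 above in both, where 27% and 28.2% of all genes tested were. The count is of few genes and of signs only. With shRNA 2 the intervals of PPP1R3D, PPP1R3E and PPP1R3F held 1, so only PPP1R3C had intervals below 1 in both lines. The summed level of the squamous basal markers had the same order, lowest in the line labelled shRNA 1 (320, 82.9 and 181 TPM). KRT14 and KRT5 did not have that order, and a link between the sets was not tested.

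PPP1R3C (ENSG00000119938.8, chromosome 10, 91628442 to 91633054, minus strand) encodes PTG, the widely expressed scaffold that raises glycogen stores and is known to be induced by low oxygen. It was counted 490 times in the control, 233 times with shRNA 1 and 371 times with shRNA 2, which gave 31.9, 15.3 and 21.3 CPM. Both shRNA lines lay below the control, at 0.48 (0.409 to 0.563) and 0.669 times its level (0.583 to 0.767). The fitted log2 fold change was -0.80 (SE 0.38, unadjusted p = 0.0609, edgeR's adjusted p = 1), so the difference did not pass the test. The 1.5-fold mark was met with shRNA 1 and narrowly missed with shRNA 2.

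PPP1R3B, which encodes the subunit best known from liver, was low in a single library. It stood at 28.6 CPM in the control and 28.8 CPM with shRNA 2, but at 11.6 CPM with shRNA 1. The ratio to the control was 0.407 with shRNA 1 (0.34 to 0.486) and 1.01 with shRNA 2 (0.885 to 1.15), and the fitted log2 fold change of -0.50 had an SE of 0.50. Its ratio between the shRNA lines, 2.48 (2.08 to 2.96), was the largest of any tested member. PPP1R3F, a glycogen-binding subunit anchored in membranes, had the same pattern at lower counts, at 4.1, 2.57 and 3.97 CPM. It was 0.625 times the control with shRNA 1 (0.408 to 0.947) and 0.968 times with shRNA 2 (0.678 to 1.38), with a fitted log2 change of -0.33 (SE 0.55).

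PPP1R3D and PPP1R3E, less studied members of the same family, also stood lowest with shRNA 1. PPP1R3D had 11.7, 8.81 and 11.5 CPM, or 0.756 (0.6 to 0.951) and 0.987 times the control (0.803 to 1.21). PPP1R3E had 4.3, 3.22 and 3.97 CPM, and both intervals of its ratio held 1 (0.507 to 1.1 and 0.649 to 1.31; fitted log2 change -0.26, SE 0.52). PPP1R3G, a subunit tied to glycogen storage after feeding, went the other way on few counts. It was counted 14, 22 and 38 times (0.911, 1.45 and 2.19 CPM). The ratio was 1.59 with shRNA 1, with an interval that held 1 (0.777 to 3.36), and 2.4 with shRNA 2 (1.27 to 4.79). Its fitted log2 change of 0.99 had an SE of 0.76 and an unadjusted p of 0.22.

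**Figure D3:**
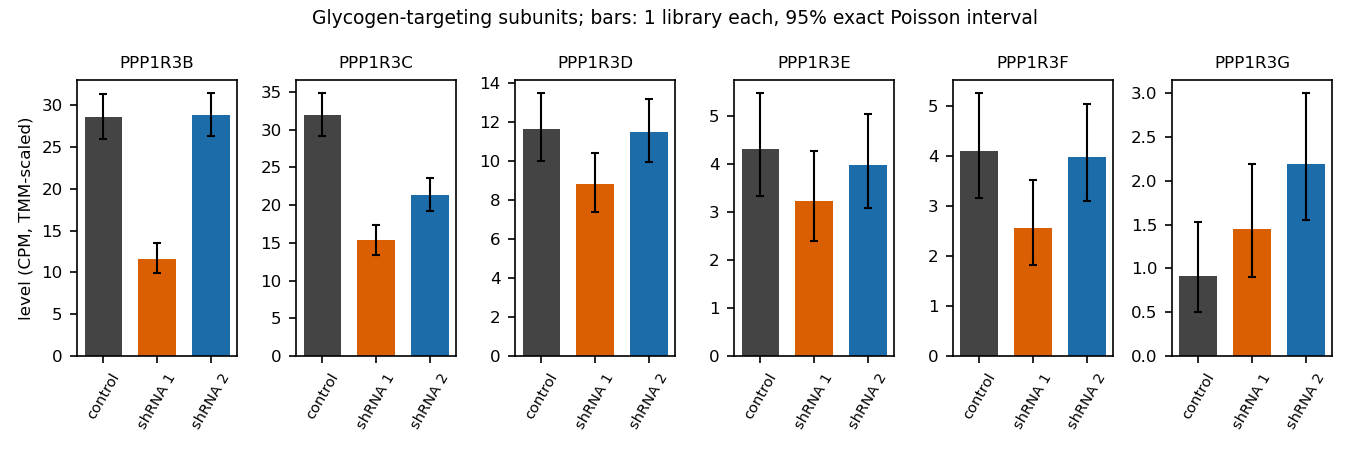
Level of the 6 tested glycogen-targeting subunits in each library (CPM, linear axis from 0, scaled for each gene). Each bar is 1 library, with exact Poisson 95% intervals that cover counting error only. PPP1R3C is below the control in both shRNA lines, PPP1R3B only in the line labelled shRNA 1 (11.6 against 28.6 CPM), and PPP1R3G is above the control in both.

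The inhibitors were the most abundant regulatory group per length, at 571, 686 and 609 TPM. Their proteins sit on the catalytic subunit and reduce its activity, some of them only once phosphorylated. PPP1R14B (PHI-1) had the highest level per length of any member, at 366 TPM in the control, 466 TPM with shRNA 1 and 364 TPM with shRNA 2. By count it was 1.22 times the control with shRNA 1 (1.16 to 1.28) and 0.968 times with shRNA 2 (0.922 to 1.02), with a fitted log2 change of 0.13 (SE 0.31). A processed pseudogene of it, PPP1R14BP3, took 184, 195 and 211 counts, so some of its reads may be split with that copy. PPP1R11 (inhibitor 3) stood at 96.5, 102 and 113 CPM (113, 124 and 136 TPM), and PPP1R2 (inhibitor 2) at 80.7, 86.3 and 97.8 CPM. Both had the order control, shRNA 1, shRNA 2 from low to high. The interval above the control excluded 1 with shRNA 2 only, at 1.18 (1.1 to 1.26) and 1.21 (1.13 to 1.31). PPP1R1C, a relative of inhibitor 1, had that order too at 7.55, 8.35 and 10.8 CPM, and was 1.11 (0.853 to 1.44) and 1.43 times the control (1.13 to 1.82). PPP1R14C (KEPI) lay on either side of the control at 30, 26.4 and 30.7 CPM. Of the 5 tested inhibitors, 3 were above the control in both lines and 0 below in both (28.2% and 27% of all genes). The fitted log2 changes of PPP1R1C, PPP1R2 and PPP1R11 were 0.34 (SE 0.44), 0.19 (SE 0.32) and 0.16 (SE 0.31), and none passed the test.

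The myosin and cytoskeleton group held the only members whose intervals lay above the control in both lines. PPP1R12A (MYPT1, the myosin phosphatase targeting subunit) had 68.2 CPM in the control, 88.5 CPM with shRNA 1 and 84.6 CPM with shRNA 2, or 1.3 (1.2 to 1.41) and 1.24 times (1.15 to 1.34). The shRNA libraries lay close together, both above the control, and the fitted log2 change was 0.34 (SE 0.32, unadjusted p = 0.306). PPP1R12C (MBS85), a relative of MYPT1, stood at 65.1, 72.5 and 82 CPM, or 1.11 (1.02 to 1.22) and 1.26 times (1.16 to 1.37; fitted log2 change 0.25, SE 0.32). Intervals above 1 in both lines were met by 2 of 33 members (6.06%), against 8.42% of all genes.

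The other members of this group were near the control or differed between the shRNA lines. PPP1R12B (MYPT2) had 29.4, 26.6 and 31.6 CPM, PPP1R18 (phostensin, an actin-binding subunit) 102, 100.1 and 116 CPM, and PPP1R9B (spinophilin, an actin-binding scaffold) 80.9, 78.3 and 89.9 CPM. PPP1R9A (neurabin), the neuronal relative of spinophilin, stood at 11.6 CPM in the control, 9.08 CPM with shRNA 1 and 15.9 CPM with shRNA 2. It was 0.783 (0.622 to 0.984) and 1.38 times the control (1.14 to 1.67), so the shRNA libraries differed 1.76-fold (1.43 to 2.17) across it. PPP1R16A (MYPT3, anchored in membranes) had the lowest ratio between the shRNA lines among members with at least 1 CPM, at 0.783 (0.721 to 0.85), from 77.9, 80.8 and 63.3 CPM. Opposite-strand exons cover 52.6% of its exon length, the most of any member.

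The eIF2alpha phosphatase subunits steer PP1 to the initiation factor that is phosphorylated in stress, and so allow protein synthesis to resume. PPP1R15A (GADD34), the stress-induced form, stood at 130 CPM in the control, 104 CPM with shRNA 1 and 150 CPM with shRNA 2. It was 0.8 (0.748 to 0.855) and 1.16 times the control (1.09 to 1.23), and the shRNA libraries differed 1.45-fold (1.36 to 1.54) around it. PPP1R15B (CReP), the constitutive form, stayed near the control at 142, 131 and 135 CPM. Per length, PPP1R15A was among the 5 highest members, at 125, 104 and 148 TPM.

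Among the nuclear regulators, PPP1R7 was below the control in both lines by similar amounts. PPP1R7 (ENSG00000115685.14, chromosome 2, 241149576 to 241183652, plus strand) encodes SDS22, which binds newly made catalytic subunit and acts in mitosis. It stood at 24.6 CPM in the control, 16.6 CPM with shRNA 1 and 17.8 CPM with shRNA 2, or 0.676 (0.574 to 0.795) and 0.725 times (0.621 to 0.844). The shRNA libraries differed less from each other (1.07-fold, 0.905 to 1.27) than either did from the control, yet the fitted log2 change of -0.51 (SE 0.36, unadjusted p = 0.186) did not pass the test. Exons of PASK, on the opposite strand, cover 17.4% of its exon length. PPP1R8 (NIPP1, a nuclear inhibitor that binds splicing factors) had 36.9, 42.9 and 38.4 CPM, and PPP1R10 (PNUTS, which brings PP1 to RNA polymerase II) 58.9, 57.9 and 59.6 CPM, the latter within counting error of the control in both lines.

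The ASPP family members tie PP1 to p53. PPP1R13L (iASPP, an inhibitor of p53) was the more abundant of the pair and differed between the shRNA lines. It stood at 159, 133 and 214 CPM, or 0.836 (0.788 to 0.887) and 1.34 times the control (1.28 to 1.41), a difference of 1.61-fold (1.52 to 1.7) between the lines. Its level per length was 93.7, 81.6 and 129 TPM. PPP1R13B (ASPP1, an activator of p53) had 18.7, 18.2 and 18.9 CPM.

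Of the remaining members, PPP1R35, a centriole protein, was below the control in both lines, at 25.2, 19.1 and 21.7 CPM, or 0.76 (0.65 to 0.887) and 0.863 times (0.747 to 0.997). Its fitted log2 change was -0.30 (SE 0.36), and 41% of its exon length lies opposite other exons, an antisense gene of its own among them. Intervals below 1 in both lines were met by 3 members, PPP1R3C, PPP1R7 and PPP1R35 (9.09%, against 8.32% of all genes). PPP1R21, an endosomal protein, stood at 24.7, 24.5 and 31.9 CPM, level with the control with shRNA 1 and 1.29 times it with shRNA 2 (1.13 to 1.48; fitted log2 change 0.19, SE 0.37). PPP1R26 had 106, 103 and 122 CPM and PPP1R37 56.3, 48.5 and 63.8 CPM. PPP1R32 was counted 12, 8 and 7 times.

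Across the 33 tested members, 8 were below the control in both shRNA lines (24.2%, against 27% of all genes) and 7 above in both (21.2%, against 28.2%). The other 18 had the lines on opposite sides of the control (54.5%, against 44.8%). Both ratios share the control library, so their agreement in sign is a description. Past 1.5-fold in both lines there were 0 members on the lower side (3.47% of all genes) and 1 on the higher side, PPP1R3G (3.03%, against 3.26%). Within 1.25-fold of the control in both lines there were 17 members (51.5%, against 35.7%). The genes tested were not limited to protein-coding genes and were not matched to the members in level. These shares, like the other shares of all genes given here, are thus of unlike sets.

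In the line labelled shRNA 1 alone, 3 members were at least 1.5-fold below the control, PPP1R3B, PPP1R3C and PPP1R3F (9.09%, against 12.7% of all genes), and PPP1R3G was that far above it (3.03%, against 10.8%). In the line labelled shRNA 2, PPP1R32 was at least 1.5-fold below (3.03%, against 9.92%) and PPP1R3G above (3.03%, against 9.38%). All members past this mark in the line labelled shRNA 1 were glycogen-targeting subunits, in both directions and at shares below those of all genes. PPP1R3F and PPP1R3G had few counts there (39 and 22), and the interval of PPP1R3G held 1. The median log2 ratio of the tested members was -0.11 with shRNA 1 and 0.06 with shRNA 2, against 0.012 and -0.002 for all genes.

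**Figure D4:**
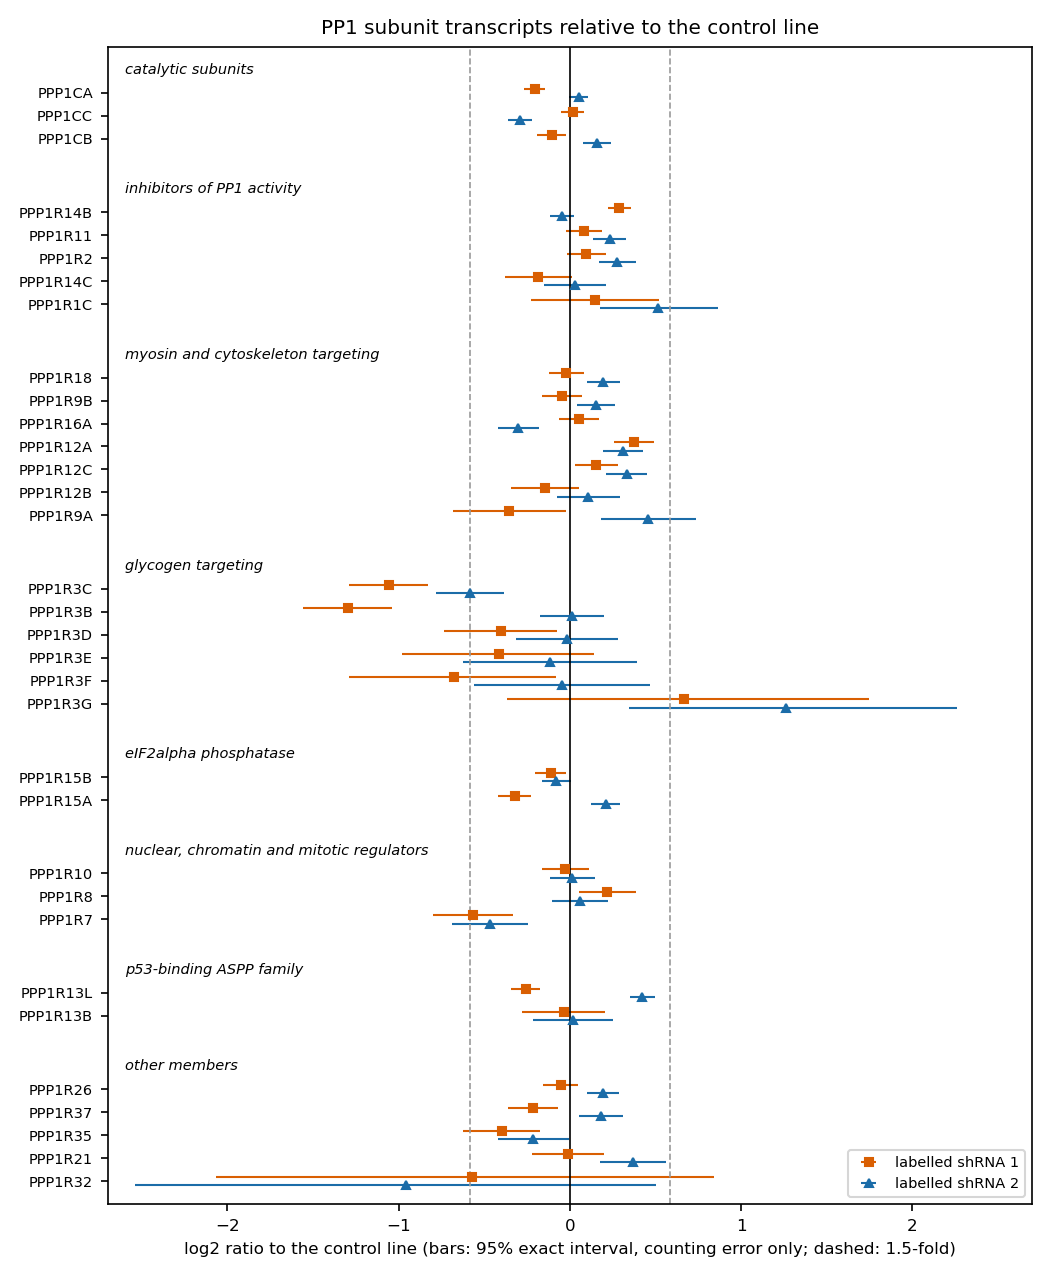
Log2 ratio of counts to the control for each of the 33 tested members in each shRNA line, with dashed lines at 1.5-fold and with exact 95% intervals of the count ratio that cover counting error only. In both lines 17 of the 33 members lie within 1.25-fold of the control, PPP1R3B and PPP1R3C are the lowest with shRNA 1, and PPP1R3G is the highest with shRNA 2.

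The shRNA lines differed from each other more often in 1 direction than in the other. The library labelled shRNA 2 was above that labelled shRNA 1 for 27 of 33 members (81.8%, against 49.9% of all genes). The 6 exceptions were PPP1CC, PPP1R14B, PPP1R12A, PPP1R16A, PPP1R8 and PPP1R32. At least 1.5-fold apart, 4 members were higher with shRNA 2, namely PPP1R3B, PPP1R3F, PPP1R9A and PPP1R13L (12.1%, against 15.8%), and 0 were lower (14.8% of all genes). Of the 18 members with the lines on opposite sides of the control, 15 were lower with shRNA 1 and higher with shRNA 2, PPP1CA and PPP1CB among them. The other 3 were PPP1CC, PPP1R14B and PPP1R16A. This split was not computed over all genes, so it is not read as a pattern of the members. For some of the 15, such as PPP1R10 and PPP1R13B, the intervals held 1 in both lines.

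PP1 partners that carry other symbols, such as kinetochore, nucleolar and membrane anchors, were detected throughout. All 25 on the list were tested; 12 were above the control in both lines and 5 below in both (28.2% and 27% of all genes), and none passed the test. The median log2 ratios were 0.07 with shRNA 1 and 0.07 with shRNA 2. KNL1, which holds PP1 at the kinetochore, stood at 38.3, 66.3 and 52 CPM, or 1.73 (1.56 to 1.92) and 1.36 times the control (1.22 to 1.51; fitted log2 change 0.63, SE 0.36). ZFYVE16 (endofin, an endosomal anchor) had 43.9, 57 and 61.7 CPM, SHOC2, which acts with PP1 on RAF kinases, 36.8, 49.1 and 50 CPM, and AKAP11, an anchoring protein, 35.7, 46.6 and 48.5 CPM. All 4 lay above the control in both lines.

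Among substrates of PP1 and genes of the AKT-mTOR route to the translation repressor 4E-BP1, 19 of 20 were tested, 4 below and 6 above the control in both lines (27% and 28.2% of all genes), with 0 called. The glycogen phosphorylase gene PYGL stood at 155, 122 and 122 CPM, or 0.788 (0.741 to 0.837) and 0.782 times the control (0.737 to 0.83; fitted log2 change -0.35, SE 0.30). The glycogen synthase gene GYS1 stood at 82.8, 80.6 and 76 CPM. EIF4E, the cap-binding factor, had 38, 55 and 38.1 CPM, and RICTOR, a subunit of mTOR complex 2, 85.4, 93.3 and 113 CPM.

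Of the catalytic genes of related phosphatases, 8 of 10 were tested, 1 below and 2 above the control in both lines (27% and 28.2% of all genes), with 0 called. PPP2CB, a catalytic subunit of PP2A, stood at 151, 117 and 124 CPM and its partner isoform PPP2CA at 178, 207 and 184 CPM. PPP3CA (calcineurin) had 73, 80.9 and 95.2 CPM and PPP5C 104, 112 and 84.9 CPM. The ratios of these 4 genes to the control, named for their large fitted changes, ran from 0.77 to 1.3. Those of the PP1 catalytic genes, all of which were named, ran from 0.819 to 1.12. The sets were chosen differently, so their ranges cannot be compared, and no test of them was run.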

How the data were processed

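RNA sequencing of 3 KYSE30 lines gave raw counts per gene, deposited by the authors in 1 table of 60554 genes. The counts were made with featureCounts 1.6.4, strand option 1, on an hg38 annotation, per the file headers. The submitters' processing notes name TopHat2, HTSeq and hg19, which differs, so the headers were followed. The sources used here do not give the library kit. All 45 members' symbols equal those of GENCODE 29, and 40 have the same version and coordinates there.

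The software was edgeR 4.0.16, DESeq2 1.42.0 and limma 3.58.1, run under R 4.3.3. The 17801 genes that passed filterByExpr were scaled by TMM (factors 0.993, 1.004 and 1.003). The quasi-likelihood test had 1 residual and 8.35 prior degrees of freedom and a biological coefficient of variation of 26.7%. It was checked on simulated data, where it recovered 82.4% of 4-fold and 99.8% of 16-fold changes, with 9 false calls per draw. Changes as small as those of the members were not simulated, so the check does not cover them. CPM used TMM-scaled totals, TPM the Length column of the table, and log2 ratios a prior count of 2. Fold marks of 1.5 were set on those log2 ratios. A count of 0 was given the limit of 3 counts.

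Named in full were the catalytic genes, the 6 highest and 6 lowest fitted changes and, for shRNA 2 over shRNA 1, the 3 highest and 3 lowest ratios, among members with at least 1 CPM, and the 5 highest members per length. Up to 4 genes per pathway list with the largest fitted change were named; 1 of these is not reported here, and GYS1 was added after its values were seen. The members and lists were chosen with earlier results of these data known. Alternatives covered scaling, filter, test, prior count, fold mark, opposite-strand overlap, length and leaving out a line.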

Additional observations from a re-analysis of the deposited data

How the results depend on the processing

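The quasi-likelihood test called 0 genes higher and 0 lower. Higher calls numbered 4 with no filter, 1 with DESeq2 and 2 with the likelihood ratio test. Lower calls numbered 1 with total counts, 37 with no filter, 14 with DESeq2, 1 with limma-voom and 36 with the likelihood ratio test. No alternative called a member. With no filter, members on the same side in both lines were 12 higher. They were 5 lower at 5 CPM or more, and 4 lower and 3 higher without opposite-strand overlap. That last set is smaller, since 18 of the 45 members have such overlap. Past the fold mark in both lines, there were 2 lower and 2 higher with no filter, and 0 higher at 5 CPM or more or at 2-fold. With no filter, 5 members were past it lower and 5 higher in the line labelled shRNA 1, 3 lower and 3 higher in the line labelled shRNA 2, and 3 were lower with shRNA 2 than shRNA 1. At 5 CPM or more, shRNA 1 had 0 higher and shRNA 2 had 0 lower and 0 higher. At 2-fold, shRNA 1 had 0 higher and shRNA 2 had 0 lower, and 1 member was higher with shRNA 2 than shRNA 1. Without opposite-strand overlap that last count was 2. Intervals wholly on 1 side of 1 counted 13 lower and 4 higher with shRNA 1, and 5 lower and 15 higher with shRNA 2. Between the lines they counted 4 lower and 20 higher with shRNA 2. Shares over all genes were not computed for these interval counts or for the other fold and sign counts here. None of them is read as a pattern of the members. By raw counts without length, the PPP1CA share was 44.5%, 41.5% and 47% in the control, shRNA 1 and shRNA 2 libraries. Of 99 fitted changes under another scaling or prior count, 95 kept their sign. With total counts only, PPP1R12B (0.003), PPP1R10 (0.011), PPP1R37 (0.013) and PPP1R13B (0.007) changed sign, all near 0. Leaving out a line left no residual degrees of freedom, so no test was run, and 18 of 33 members changed sign with the line left out. PPP1R3B was 0.011 without the line labelled shRNA 1 and -1.295 without that labelled shRNA 2. PPP1R9A was -0.352 and PPP1R13L -0.258 without the line labelled shRNA 2. The cause was not tested. No paired analysis was possible because there is a single control library, whose label gives no replicate number. With 1 library per line, no spread between cultures was measured.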

Other observations

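Non-coding genes named after PP1 subunits were left out of the counts above; their levels are given as CPM of the total counts. PPP1R3B-DT stood at 0.969, 2.44 and 1.1 CPM in the control, shRNA 1 and shRNA 2 libraries (15, 37 and 19 counts). It is named as a divergent transcript of PPP1R3B but is annotated apart from it, at 9189011 to 9202854 against 9136255 to 9151574 on chromosome 8. It was highest in the line labelled shRNA 1, where PPP1R3B was lowest. PPP1R15B-AS1, antisense to the CReP gene, was counted 17, 2 and 5 times. PPP1R26-AS1 stood at 13.4, 14 and 20.3 CPM, highest with shRNA 2 as PPP1R26 was. PPP1R35-AS1 was counted 99, 66 and 99 times. None of these was tested as a member. Opposite-strand exons cover 59.1% of PPP1R35-AS1, so its reads and those of PPP1R35 may not be separated in these counts. No such exon overlap was found for PPP1R3B-DT, PPP1R15B-AS1 or PPP1R26-AS1, and overlap with introns was not checked.

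NOM1, a nucleolar anchor of PP1, differed most between the shRNA lines among the partners named here. It stood at 28.4 CPM in the control, 36.1 CPM with shRNA 1 and 16.4 CPM with shRNA 2, or 1.27 (95% exact interval 1.12 to 1.45) and 0.577 times the control (0.496 to 0.672). RRP1B, a further nucleolar partner, stood at 53.8, 92.3 and 49.5 CPM, 1.72 times the control with shRNA 1 (1.57 to 1.87) and 0.92 times with shRNA 2 (0.835 to 1.01). Both were chosen after their values were seen, and both were highest in the line labelled shRNA 1. Neither passed the test (fitted log2 changes -0.11, SE 0.48, and 0.40, SE 0.42). PHACTR3, an actin-regulated partner, was counted 3, 15 and 18 times.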
